A study of Mus musculus with 12 samples.

Results

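The clustered protocadherins are cell-surface cadherins encoded in tandem arrays on mouse chromosome 18, from 36930184 to 37841873 in mm10. The members were chosen by gene symbol: all 58 genes, of 55401 in the counts, whose symbol is an alpha (Pcdha and Pcdhac), beta (Pcdhb) or gamma (Pcdhga, Pcdhgb and Pcdhgc) protocadherin. No measured value entered that choice, but the family was picked with earlier results of these libraries known, so the calls below describe these libraries and are no independent evidence.

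RNA was measured in sorted cells that the sample titles call astrocytes. They came from the cortex and the hippocampus of mice carrying both CD51-Flp and Rosa-CAG-FSF-tdTomato. In these mice a Flp recombinase controlled by CD51 (integrin alpha-v) switches on tdTomato. Cells labelled CD51+ carried tdTomato and GFP, and cells labelled CD51− carried GFP without tdTomato. The sources used here do not give the driver of GFP, the age of the mice or the origin of the replicates. The 4 groups, cortex CD51+, cortex CD51−, hippocampus CD51+ and hippocampus CD51−, had 3 libraries each, and the p-values measure only the spread between these samples, which may be technical. The submitters' library names end in G where the title says CD51+ and in GT where it says CD51−. If GT stands for cells with both reporters, the titles are swapped and each CD51 difference below changes sign.

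Each alpha and gamma gene has its own promoter and a large variable exon that encodes the ectodomain, joined to constant exons shared by the whole array. Beta genes have a single exon and no constant region. Cells choose among the promoters largely at random, with CTCF and cohesin looping promoters to distant enhancers, and the proteins form mixed cis units that bind only matching sets on another membrane. The C-type isoforms at the end of the alpha and gamma arrays (Pcdhac1, Pcdhac2, Pcdhgc3, Pcdhgc4 and Pcdhgc5) are known to be regulated apart from this random choice. In the nervous system the family is known for neurite self-avoidance and neuronal survival, and gamma protocadherins of astrocytes for their part in contact with neurons and synapse formation.

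The deposited counts read only part of each transcript. A read pair that lies in exons of several genes was not assigned, so the constant exons dropped out: the median gene shared 2860 exon bases with other members in the alpha array and 2119 in the gamma array, and 0 in the beta array. The median length left to a gene alone was 2475 bases in alpha, 3714 in beta and 2587 in gamma. Pcdhga10 had 0 bases of its own, so its count of 0 shows nothing about its expression. Other settings of the counting also touch these genes. Reads that align equally well to several places were counted at their primary alignment only, which can shift reads between near-identical members. Counting ignored strand, so exon bases that overlap genes of the other strand, such as Gm26672, were lost in the same way, and antisense reads elsewhere cannot be told apart from sense reads.

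Total counts ran from 4351897 to 12847183 per library. Mitochondrially encoded genes took between 36.5% and 71.1% of the counts in the CD51+ libraries and between 20.2% and 38.6% in the CD51− libraries, with 71.1% in cortex CD51+ replicate 3. Levels are given as CPM, counts scaled to 1e+06 per library on TMM-scaled library sizes. The libraries also differed in cell type markers. The 20 pan-astrocyte markers summed to 86183 CPM in cortex CD51+ and 10627 in cortex CD51−, and to 68968 and 18659 in the hippocampal classes, with none of the 20 at 0 in any group. The 12 oligodendrocyte markers summed to 2813 and 43730.2 CPM in cortex and 3109 and 23461 in hippocampus, and the 14 microglial markers to 617 and 10829.8 and to 718 and 7313. In both CD51− groups the oligodendrocyte markers summed to more than the astrocyte markers. The title astrocyte therefore does not describe all RNA of the CD51− libraries. Neuronal markers (12 genes) summed to 631 and 285 CPM in cortex and 688 and 227 in hippocampus, below the astrocyte markers in every group. In both regions the CD51+ libraries were all above the CD51− libraries in that sum. The ranges were 504 to 774 against 212 to 384 CPM in cortex and 604 to 848 against 64.7 to 320 in hippocampus. What neuronal RNA contributes to the family levels below was not tested. Markers of oligodendrocyte precursors (10 genes) were between 64.0 and 132 CPM. Ependymal and choroid plexus markers (8 genes) summed to 76.3 and 204 CPM in cortex CD51+ and CD51−, and to 1516 and 3253 in hippocampus. In bulk libraries, fewer cells of a type and less RNA per cell cannot be told apart.

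Clustered protocadherin RNA was mostly gamma RNA, and its summed level was higher in the cortical libraries labelled CD51+. Of 27998 counts for the family, the 22 gamma genes took 21921 (78.3%), the 22 beta genes 5884 (21.0%) and the 14 alpha genes 193 (0.689%). Summed over all 58 genes, cortex CD51+ stood at 513 ± 68.1 CPM (SD, n = 3; range 439 to 573) and cortex CD51− at 80.2 ± 55.3 (30.4 to 140). The cortical classes did not overlap, and the log2 ratio of their means was 2.68. In hippocampus the sums were 439 ± 104 CPM in CD51+ (377 to 559) and 255 ± 173 in CD51− (141 to 454), which overlapped, with a log2 ratio of 0.78. Hippocampal CD51− replicate 2 alone reached 454 CPM, and without it the log2 ratio was 1.497.

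In cortex the summed levels of the gamma and of the beta array each separated the classes. The gamma sum was 427 ± 35.6 CPM in cortex CD51+ against 61.2 ± 51.2 in cortex CD51−, and 295 ± 47.9 against 217 ± 171 in hippocampus (SD, n = 3), where the libraries overlapped. The beta sum was 83.6 ± 45.3 against 18.9 ± 15.1 CPM in cortex. In hippocampus it was 138 ± 62.1 against 36.6 ± 7.47 CPM, with ranges of 87.2 to 207 and 28.8 to 43.7 that did not overlap. The log2 ratio of the hippocampal means was 1.91 for beta and 0.44 for gamma, a difference that was not tested. Leaving out 1 library moved the gamma ratio to between 0.091 (without CD51− replicate 1) and 1.31 (without CD51− replicate 2), with 0.21 without CD51− replicate 3.

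**Figure D1:**
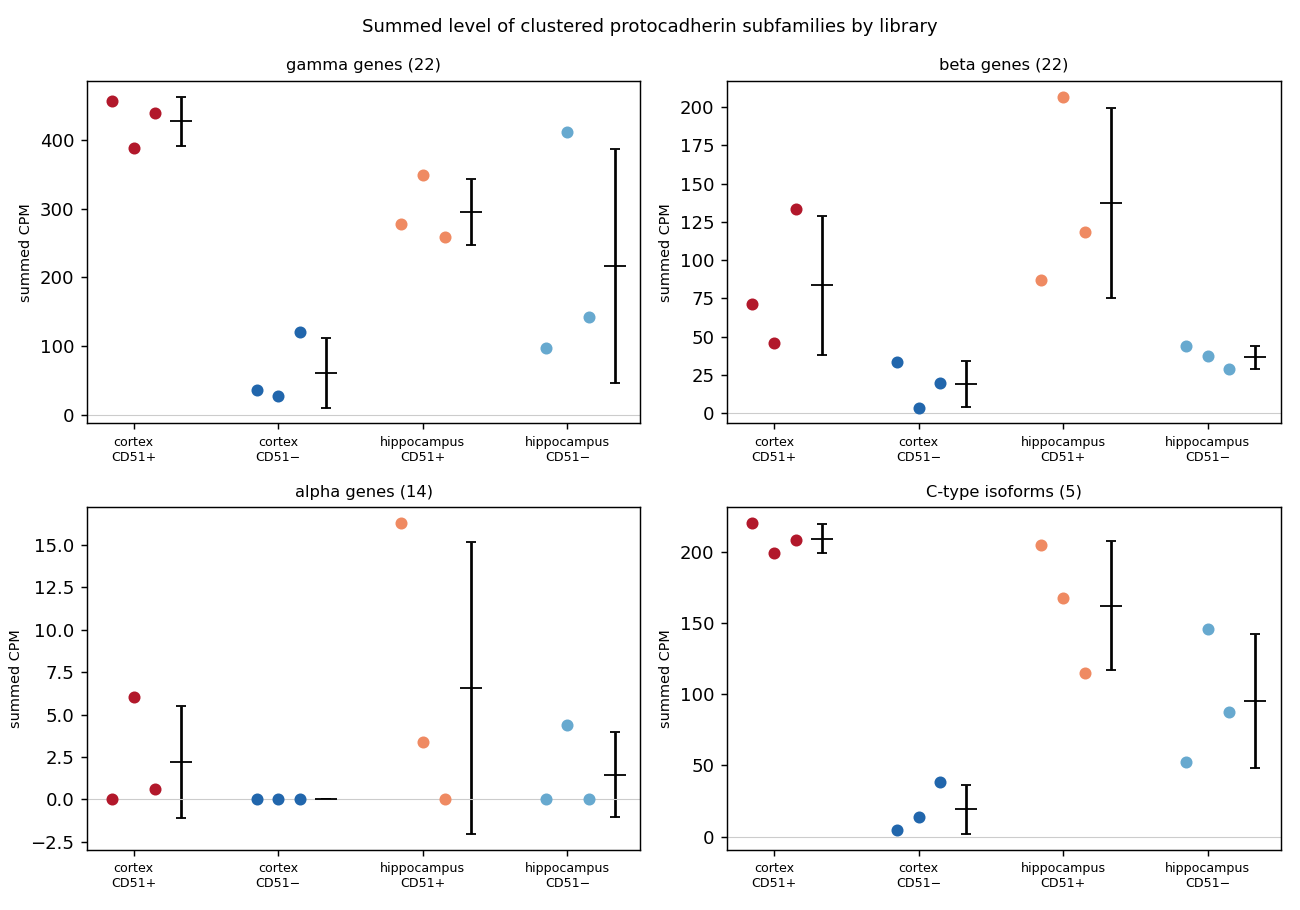
Summed level (CPM, vertical axis) of the gamma, beta and alpha genes and of the 5 C-type isoforms in each library of the 4 groups (horizontal axis). Points are libraries in the order of replicates 1 to 3, bars are the mean ± SD (n = 3) and can reach below 0 where the spread exceeds the mean; the cortical gamma sums separate the classes, while 1 hippocampal CD51− library at 412 CPM lies above every hippocampal CD51+ library.

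The pan-astrocyte markers were also higher in CD51+. Per 1000 CPM of these markers the family sum was 6.01 ± 1.002 CPM in cortex CD51+ and 7.43 ± 2.98 in cortex CD51−, and 6.35 ± 0.999 and 13.2 ± 7.67 in the hippocampal classes (SD, n = 3; a ratio chosen after the values were seen). For the family sum CD51+ was not the higher class on that scale: the cortical ranges, 5.15 to 7.11 and 4.26 to 10.2, overlapped, and the hippocampal CD51− libraries, from 7.68 to 21.98, were all above the CD51+ libraries, from 5.30 to 7.29. For Pcdhgc3 the ratio was 1.61 ± 0.203 and 1.44 ± 0.648 in cortex and 1.61 ± 0.598 and 2.76 ± 2.58 in hippocampus, with overlapping ranges in both regions. For Pcdhgc5 it was higher in cortex CD51+, at 0.595 to 0.758 against 0.0122 to 0.499, and overlapped in hippocampus, at 0.247 to 1.10 against 0.584 to 3.17. The part of the cell makeup in the differences below was not tested further.

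Of the 58 genes, 14 had no count in any library, 5 had counts in 1 library only, and 25 passed the filter on low counts (5 beta and 20 gamma genes). A gene that passed through the group in which it is high had to differ, so counts over these 25 describe them only. In cortex 6 of the 25 were higher in CD51+ at an edgeR adjusted p under 0.05, where 5.05% of all 12613 tested genes were, and 0 were lower, where 6.27% were. In hippocampus 1 was higher (0.618% of all genes) and 0 were lower (2.7%). Averaged over both regions 8 were higher (8.87%) and 0 were lower (13.9%). The fitted log2 fold changes of the 25 had a median of 3.79 in cortex, 0.99 in hippocampus and 2.27 in the average, beside -0.03, -0.22 and -0.14 over all tested genes. The libraries of the classes did not overlap, with CD51+ higher, for 10 members in cortex (15.1% of all tested genes) and 5 in hippocampus (10.5%), and with CD51+ lower for 0 in either (16.6% and 16.7%). These contrasts share libraries, and the average is the mean of the other two.

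More members were detected in CD51+ than in CD51− libraries of a region, while more genes in all were detected in CD51− libraries. Between 25 and 29 members had a count in each cortex CD51+ library, while the cortex CD51− libraries held 13, 8 and 16 members. The hippocampal CD51+ libraries held 26, 37 and 31 members and the hippocampal CD51− libraries 17, 20 and 24. Over all genes, 12113 to 12294 had a count in the cortex CD51+ libraries and 12319 to 13767 in cortex CD51−, and 12894 to 13143 and 14907 to 15425 in the hippocampal classes. Of 44 members with a count, 33 (75%) were seen in both classes, 10 (22.7%) in CD51+ only and 1 (2.27%), Pcdhb2, in CD51− only. Of 24340 genes with a count the shares were 68.4%, 10.3% and 21.3%.

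**Figure D2:**
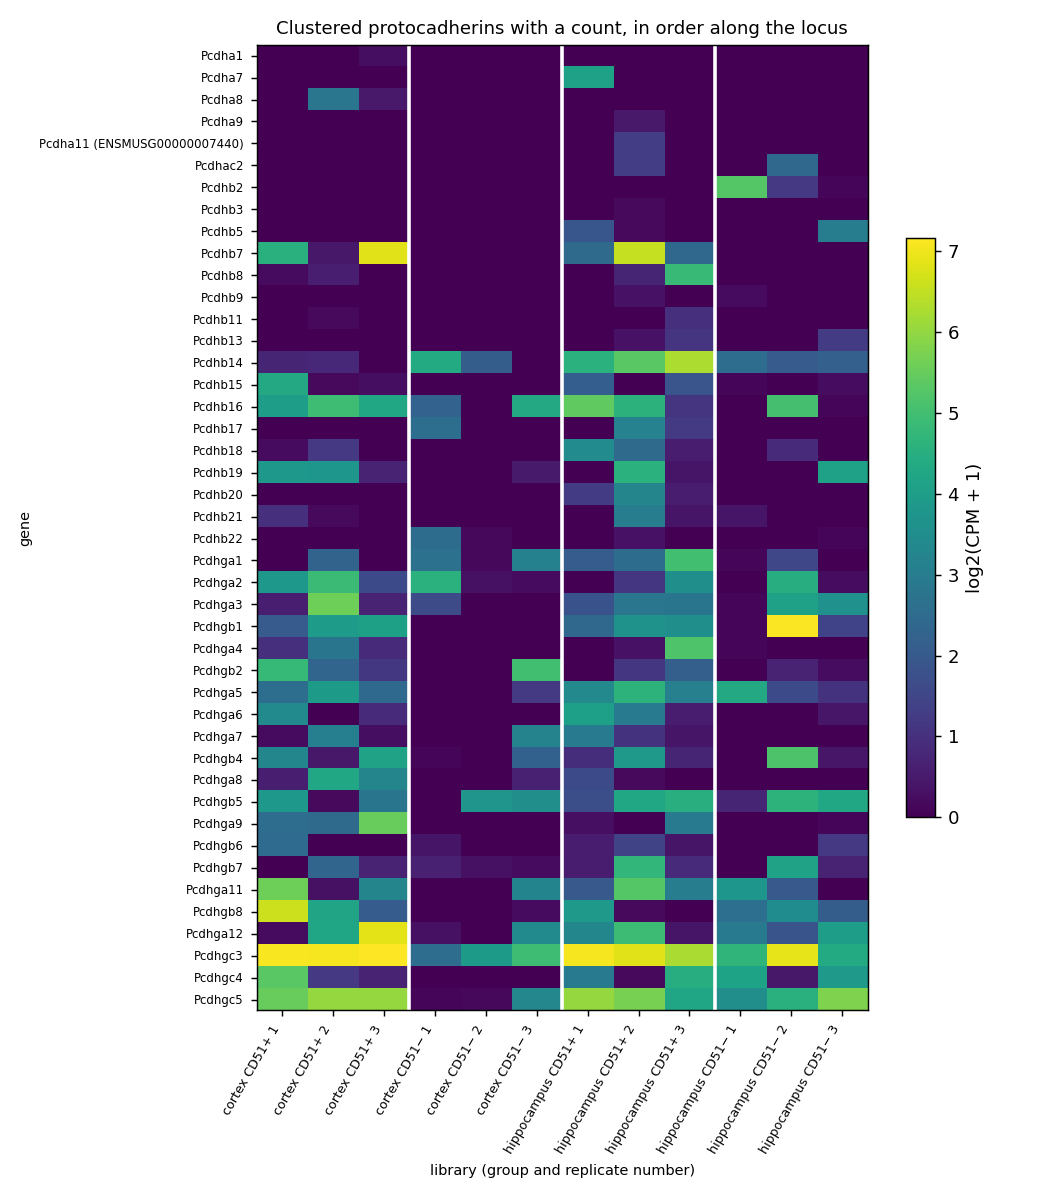
Level of each of the members with a count, as log2(CPM + 1) by colour, with genes in order along the chromosome (vertical axis) and the 12 libraries by group and replicate (horizontal axis). The rows of Pcdhgc3 and Pcdhgc5 hold a count in every library, whereas most gamma A, gamma B and beta rows are bright in some libraries of a group and dark in others.

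Among the C-type isoforms, Pcdhgc3 had the highest mean level in every group. Its libraries lay close together in cortex CD51+ but not in hippocampus CD51−, at 54.5 ± 55.4 CPM there (SD, n = 3) beside 29.1 ± 22.4 for Pcdhgc5. Pcdhgc3 (ENSMUSG00000102918.1, chromosome 18, 37806364 to 37841873), whose cytoplasmic part is known to bind Axin1 and dampen Wnt signalling, was read at 136, 133 and 143 CPM in cortex CD51+ and at 4.89, 13.9 and 29.6 CPM in cortex CD51−. All cortical CD51+ libraries thus lay above all CD51− libraries, at 137 ± 4.91 against 16.1 ± 12.5 CPM (SD, n = 3). On the log2 scale CD51+ was higher by 3.09 ± 0.92 (SE), with an edgeR adjusted p of 0.0332. In hippocampus Pcdhgc3 was at 133, 115 and 76.2 CPM in CD51+ and at 25.0, 118 and 20.0 CPM in CD51−. Hippocampal CD51− replicate 2 lay within the CD51+ levels, so the classes overlapped. The log2 fold change of 0.99 ± 0.86 did not pass (edgeR adjusted p = 0.622). Over 23 alternatives that fold change ran from 0.58 to 2.26 and passed in none.

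Averaged over both regions Pcdhgc3 was higher in CD51+, by 2.04 ± 0.62 on the log2 scale (SE), with an edgeR adjusted p of 0.0219. The difference between the regional effects was -2.11 ± 1.22 on the log2 scale (edgeR adjusted p = 0.485) and did not pass. The cortical call ended without cortex CD51+ replicate 1, 2 or 3 or cortex CD51− replicate 1 or 2 (edgeR adjusted p = 0.0644, 0.0625, 0.0805, 0.109 and 0.0807), with only the cortical libraries in the fit (0.0674) and with no filter (0.0531). The averaged call ended without hippocampus CD51+ replicate 1 or hippocampus CD51− replicate 1 or 3 (edgeR adjusted p = 0.0521, 0.0565 and 0.0610). An exact permutation test of the cortical libraries gave p = 0.1 (two-sided), the smallest that 3 against 3 can give.

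Per kilobase of exon that is its own, Pcdhgc3 stood at 43.4 CPM over the 12 libraries, 5.12 times the next member, Pcdhga11 at 8.47. Within groups the ratio to the next member was lower, at 4.82 in cortex CD51+ (Pcdhgb8), 2.37 in cortex CD51− (Pcdhgb2), 4.67 in hippocampus CD51+ (Pcdhga11) and 1.69 in hippocampus CD51− (Pcdhgb1). By full exon length the ratio to the next member, then Pcdhb7, was 2.54. By group Pcdhgc3 was at 75.5 ± 2.69 and 8.86 ± 6.87 CPM per kilobase in cortex CD51+ and CD51−, and at 59.3 ± 15.9 and 29.9 ± 30.4 in hippocampus (SD, n = 3). It had the highest level per kilobase of all members in 10 of the 12 libraries. Its tagwise dispersion in the edgeR fit, a measure of spread between replicates beyond counting, was 0.577. The median was 2.72 over the 25 tested members and 1.80 over all tested genes, sets that are not matched to its level.

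Pcdhgc5 (ENSMUSG00000102543.5, 37819513 to 37841873) was the other member with a count in all 12 libraries. It was at 44.2, 64.6 and 64.5 CPM in cortex CD51+ and at 0.0844, 0.120 and 8.90 CPM in cortex CD51−. The hippocampal levels were 64.7, 50.8 and 17.6 CPM in CD51+ against 10.7, 22.6 and 54.0 in CD51−. Cortical CD51+ libraries were all above the CD51− libraries, while the hippocampal classes overlapped. Neither the cortical difference of 4.26 ± 1.51 on the log2 scale (edgeR adjusted p = 0.0650) nor the averaged one of 2.43 ± 0.98 (0.0770) passed, and both passed with DESeq2 (adjusted p = 0.00483 and 0.0232) and with limma-voom (0.00799 and 0.00871). Both also passed without cortex CD51− replicate 3 (edgeR adjusted p = 0.00212 and 0.00166).

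Pcdhgc4 (ENSMUSG00000023036.14, 37815079 to 37841873), the gamma isoform known to be needed for neuronal survival, was uneven. It was at 39.5, 1.28 and 0.609 CPM in cortex CD51+ and had no count in the cortex CD51− libraries. The pooled cortical CD51+ counts, 248, were at least 120-fold above the floor of 3 counts over the CD51− group (edgeR adjusted p = 0.0423), and most of them came from replicate 1, without which the bound was 9.21-fold and the adjusted p 0.178. Intervals and floors here cover counting error only and treat reads as independent. The reads carry no molecular identifiers, so duplicate reads could make these intervals too narrow and these floors too low. The call also ended without cortex CD51− replicate 1, 2 or 3 (edgeR adjusted p = 0.0978, 0.0979 and 0.0739) and with limma-voom (0.0727). In hippocampus Pcdhgc4 was at 6.88, 0.134 and 20.9 CPM in CD51+ and at 16.9, 0.372 and 13.5 CPM in CD51−, so the classes overlapped (log2 fold change -0.14 ± 2.06; edgeR adjusted p = 0.987). The averaged contrast passed narrowly (edgeR adjusted p = 0.0480) and was lost when any library was left out other than cortex CD51+ replicates 2 and 3 and hippocampus CD51+ replicate 2 (0.0598 to 0.204), with limma-voom (0.224), with no filter (0.0530) and without mitochondrially encoded genes (0.0509).

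The alpha C-type isoforms were nearly silent. Pcdhac1 had no count in any library, which allows up to 3 counts over all 12 at this depth. Pcdhac2 had 11 counts in hippocampus CD51+ replicate 2 and 47 in hippocampus CD51− replicate 2, or 1.48 and 4.37 CPM, and 0 elsewhere. The sum of the 5 C-type isoforms was 209 ± 10.4 CPM in cortex CD51+, 19.2 ± 17.4 in cortex CD51−, 162 ± 45.0 in hippocampus CD51+ and 95.3 ± 47.1 in hippocampus CD51− (SD, n = 3). The cortical CD51+ libraries ranged from 199 to 220 CPM in that sum, the narrowest of the 4 groups.

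**Figure D3:**
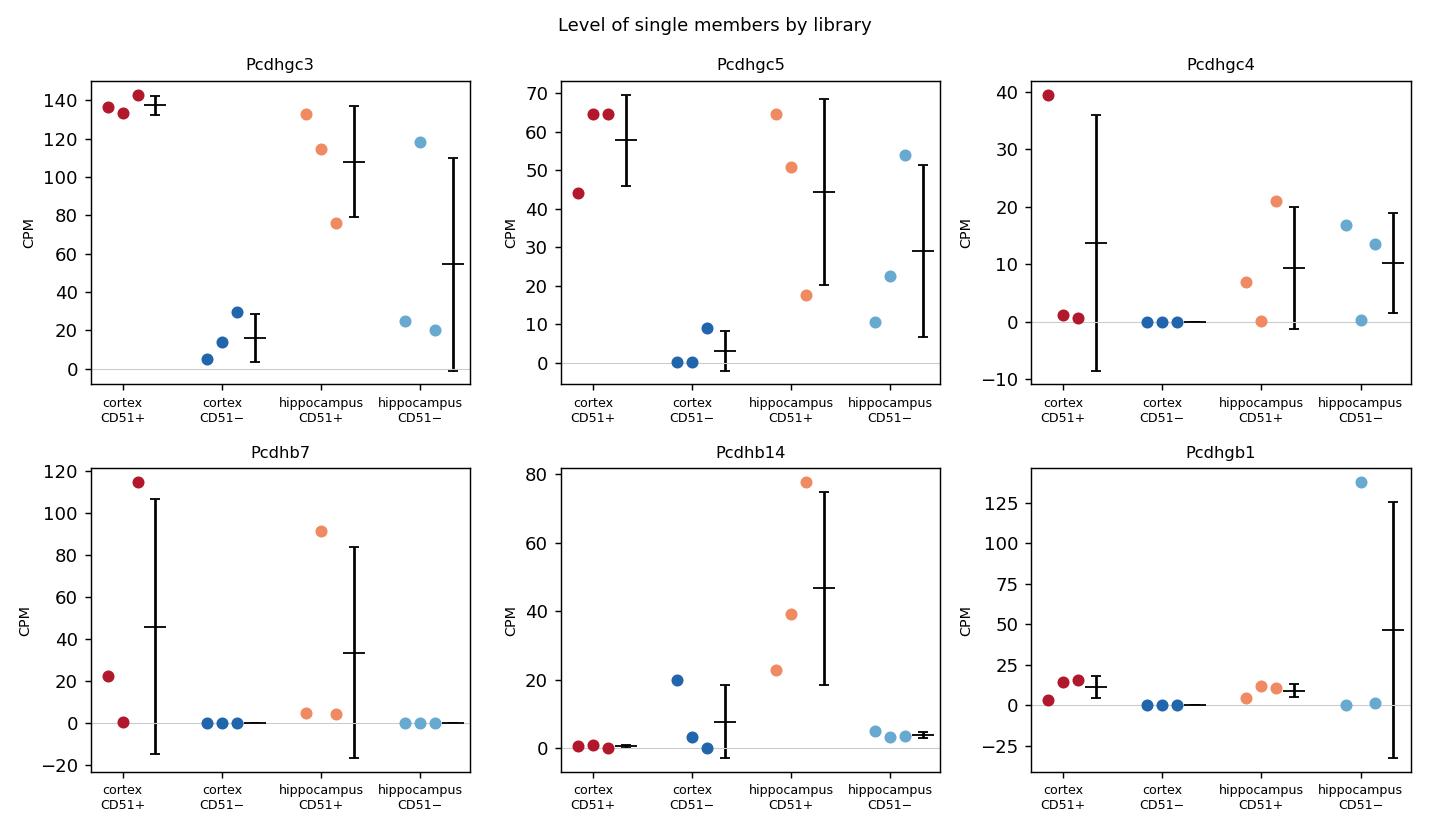
Level (CPM, vertical axis) of Pcdhgc3, Pcdhgc5, Pcdhgc4, Pcdhb7, Pcdhb14 and Pcdhgb1 in each library of the 4 groups (horizontal axis), with points for replicates 1 to 3 and bars for the mean ± SD (n = 3), which can reach below 0. Pcdhgc3 is at 133 to 143 CPM in cortex CD51+, Pcdhb7 is at 0 in all CD51− libraries, and Pcdhgb1 reaches 138 CPM in a single hippocampal CD51− library.

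Among the beta genes, Pcdhb7 had counts in every CD51+ library and in no CD51− library. Pcdhb7 (ENSMUSG00000045062.4, 37341702 to 37345202, a single-exon gene with no exon base shared with another gene) had 134, 3 and 565 counts in cortex CD51+ and 20, 682 and 26 counts in hippocampus CD51+, against 0 in all 6 CD51− libraries. As levels these were 22.5, 0.385 and 115 CPM in cortex and 4.59, 91.5 and 4.36 CPM in hippocampus. It was the only member with a count in all 6 CD51+ and in no CD51− library, as were 24 of the 12613 tested genes. Within CD51+ it was uneven: 1 library of each region held most of the counts. Cortex CD51+ replicate 2, at 3 counts, stood at the floor of 3 counts used for a group with 0.

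Pooled over the libraries, Pcdhb7 was at least 339-fold higher in CD51+ in cortex (edgeR adjusted p = 0.0115), at least 464-fold higher in hippocampus (0.0256) and at least 798-fold higher over both regions (0.000417). Without the library with most counts, cortex CD51+ replicate 3 or hippocampus CD51+ replicate 2, the regional bounds were 89.8-fold and 50.5-fold. Without the latter the bound over both regions was 525-fold, with 565 of the remaining 748 counts in cortex CD51+ replicate 3. The cortical and averaged calls were kept in all 22 alternatives that tested the gene. The fit of only the cortical libraries did not test it, since 3 counts in cortex CD51+ replicate 2 left it below the filter. The hippocampal call ended without hippocampus CD51+ replicate 2 (edgeR adjusted p = 0.130) and without hippocampus CD51− replicate 1, 2 or 3 (0.0510, 0.0677 and 0.0579).

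The other beta genes that passed the filter had counts in both classes. Pcdhb14 (ENSMUSG00000044043.4, 37447656 to 37456350) was at 0.672, 0.769 and 0 CPM in cortex CD51+ and 19.9, 3.36 and 0 in cortex CD51−. The hippocampal levels were 22.9, 39.3 and 77.7 CPM in CD51+ against 4.93, 3.16 and 3.62 in CD51−, where the classes did not overlap. Neither difference passed (log2 fold change -3.95 ± 1.92, edgeR adjusted p = 0.158 in cortex; 3.57 ± 1.86, 0.308 in hippocampus). The difference between the regional effects was 7.52 ± 2.67 on the log2 scale, with an unadjusted p of 0.00969 and an edgeR adjusted p of 0.236.

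Pcdhb15 (ENSMUSG00000047033.2) was at 19.0, 0.128 and 0.203 CPM in cortex CD51+ and 0 in cortex CD51−, and at 3.44, 0 and 2.68 CPM in hippocampus CD51+ against 0.0821, 0 and 0.181 in CD51−. Over both regions 146 counts in CD51+ stood against 3 in CD51−, a ratio of 81.5 with a 95% counting interval of 27.3 to 399.6 (edgeR adjusted p = 0.0243), and of 22 without cortex CD51+ replicate 1. That call ended when any library was left out other than cortex CD51+ replicates 2 and 3 and hippocampus CD51+ replicate 2 (0.0515 to 0.131, the highest without cortex CD51+ replicate 1), with limma-voom (0.0771) and with no filter (0.0627).

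Pcdhb16 (ENSMUSG00000047910.6) was at 14.9, 29.6 and 18.3 CPM in cortex CD51+ and 3.80, 0 and 19.3 in CD51−, and at 42.0, 23.3 and 1.17 CPM in hippocampus CD51+ and 0, 32.04 and 0.0906 in CD51−. Pcdhb19 (ENSMUSG00000043313.6) was at 13.1, 12.6 and 0.609 CPM in cortex CD51+ and 0, 0 and 0.438 in CD51−, and at 0, 22.7 and 0.335 CPM in hippocampus CD51+ and 0, 0 and 16.3 in CD51−. For both genes a library of each hippocampal class was near or at 0 while another passed 16 CPM, and no contrast passed. Of the 17 beta genes below the filter, 5 had no count. Pcdhb2 and Pcdhb8, named after their values were seen, each rested on 1 library: Pcdhb2 was at 38.2 CPM in hippocampus CD51− replicate 1 and at most 1.30 elsewhere, and Pcdhb8 at 27.5 CPM in hippocampus CD51+ replicate 3 and at most 0.671 elsewhere.

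The gamma A and gamma B genes, the variable isoforms of the gamma array, were numerous and patchy. Of these 19 genes, 17 passed the filter. They summed to 218 ± 26.1 CPM in cortex CD51+ and 42.1 ± 35.5 in cortex CD51−, and to 133 ± 55.9 and 123 ± 128 CPM in the hippocampal classes (SD, n = 3). In cortex 3 of them were higher in CD51+ at an edgeR adjusted p under 0.05 (5.05% of all tested genes), all with the CD51− libraries at or near 0. The cortex CD51− libraries had no part in their passing the filter, so this count describes them only.

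Pcdhgb1 (ENSMUSG00000103037.1, 37680233 to 37841870) was at 3.19, 14.6 and 15.8 CPM in cortex CD51+ and had no count in cortex CD51−, at least 102-fold higher (edgeR adjusted p = 0.0259). Its hippocampal levels were 4.36, 11.8 and 10.9 CPM in CD51+ against 0.0821, 138 and 1.72 in CD51−. The hippocampal mean was set by CD51− replicate 2, which held 1482 of the gene's 1885 counts, and the classes overlapped there (log2 fold change -2.36 ± 1.85; edgeR adjusted p = 0.570). The cortical call ended without cortex CD51− replicate 1 or 2 (edgeR adjusted p = 0.0612 and 0.0565). The difference between the regional effects had the smallest unadjusted p of all members, 0.00131, and did not pass (edgeR adjusted p = 0.157).

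Pcdhgb8 (ENSMUSG00000103081.3, 37761801 to 37841870) was at 97.2, 17.1 and 3.25 CPM in cortex CD51+ and at 0, 0 and 0.146 CPM in cortex CD51−. The 728 counts against 1 gave a ratio of 1054 (95% counting interval 189 to 41698; edgeR adjusted p = 0.0304), and without cortex CD51+ replicate 1, which held 579 of them, the ratio was 317. Its hippocampal levels were 13.5, 0.134 and 0 CPM in CD51+ against 5.09, 10.1 and 3.35 in CD51−, so the classes overlapped. The cortical call ended without cortex CD51+ replicate 1 (0.130) and cortex CD51− replicate 1 or 2 (0.0814 and 0.0817). The averaged call (edgeR adjusted p = 0.0419) ended without cortex CD51+ replicate 1, cortex CD51− replicate 1 or 2, hippocampus CD51+ replicate 1 or any hippocampus CD51− library (0.0636 to 0.547, the highest without hippocampus CD51+ replicate 1), and with limma-voom (0.216).

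Pcdhga9 (ENSMUSG00000102440.1, 37736936 to 37841870) was at 4.87, 4.62 and 44.4 CPM in cortex CD51+ with no count in cortex CD51−, at least 137-fold higher (edgeR adjusted p = 0.0443) and at least 42.6-fold without CD51+ replicate 3, which held 219 of the 284 counts. Its hippocampal levels were 0.229, 0 and 6.87 CPM in CD51+ against 0, 0 and 0.0906 in CD51−. Over both regions 326 counts against 1 gave a ratio of 546 (95% counting interval 97.3 to 21621; edgeR adjusted p = 0.00987), and 107 against 1 without cortex CD51+ replicate 3 gave 207. The cortical call ended without any of the 6 cortical libraries (0.0559 to 0.127), without hippocampus CD51− replicate 2 (0.0519) and with no filter (0.0529), and the averaged call without hippocampus CD51+ replicate 3 (0.0559).

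Pcdhga6 and Pcdhga8 passed only in the average. Pcdhga6 (ENSMUSG00000103793.1) was at 9.57, 0 and 0.812 CPM in cortex CD51+ and 0 in cortex CD51−, and at 15.4, 6.57 and 0.503 CPM in hippocampus CD51+ and 0, 0 and 0.362 in CD51− (log2 fold change 6.803 ± 2.07; edgeR adjusted p = 0.0221). Pcdhga8 (ENSMUSG00000103897.1) was at 0.504, 18.3 and 8.52 CPM in cortex CD51+ and 0, 0 and 0.584 in CD51−, and at 2.06, 0.134 and 0 CPM in hippocampus CD51+ with no count in CD51− (5.54 ± 1.89; 0.0384). The CD51− libraries of both genes were at or near 0, and the 180 and 198 counts of the CD51+ libraries stood against 4 each. The Pcdhga6 call ended without replicate 1 of either CD51+ group or without replicate 1 or 2 of either CD51− group (edgeR adjusted p = 0.0517 to 0.0771). The Pcdhga8 call ended without any library other than cortex CD51− replicate 3 (0.0514 to 0.162) and with no filter (0.0895).

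Of the 5 most abundant gamma A and B genes, 3 had no call in any contrast. Pcdhga12 (ENSMUSG00000102428.1) was at 0.168, 17.6 and 117 CPM in cortex CD51+ and 0.253, 0 and 9.48 in CD51−, and at 8.72, 29.0 and 0.335 CPM in hippocampus CD51+ and 6.65, 2.60 and 15.3 in CD51−. Pcdhga11 (ENSMUSG00000102742.1) was at 47.0, 0.256 and 8.52 CPM in cortex CD51+ and 0, 0 and 8.46 in CD51−, and at 2.98, 37.8 and 7.04 CPM in hippocampus CD51+ and 12.6, 2.97 and 0 in CD51−. Pcdhgb5 (ENSMUSG00000103749.1) was at 13.1, 0.128 and 5.88 CPM in cortex CD51+ and 0, 12.3 and 10.6 in CD51−, and at 2.29, 18.5 and 21.6 CPM in hippocampus CD51+ and 0.657, 24.1 and 18.6 in CD51−. The classes overlapped for all of these genes in both regions, and the spread within cortex CD51+ alone covered the range from under 1 to over 10 CPM. For Pcdhgb5 the fitted log2 fold change was -0.27 ± 1.94 in cortex and -0.03 ± 1.94 in hippocampus.

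The alpha genes gave 193 counts in all. No alpha gene passed the filter and 8 of 14 had no count. Pcdha7 was read at 16.3 CPM in hippocampus CD51+ replicate 1 only, and Pcdha8 at 6.03 CPM in cortex CD51+ replicate 2 and 0.406 in replicate 3 (both named after their values were seen). The symbol Pcdha11 is carried by 2 gene IDs, of which ENSMUSG00000007440.10 had 11 counts and ENSMUSG00000102206.5 had none. No alpha gene had a count in cortex CD51−.

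Which variable members were read changed from library to library. In cortex CD51+ 19 members reached 10 CPM in at least 1 library, and 10 of them (52.6%) were under 1 CPM in another library of the same group, as were 26.6% of all tested genes that reached 10 CPM. The same held for 5 of 6 members (83.3%; all tested genes 34.5%) in cortex CD51−, 12 of 22 (54.5%; 23.7%) in hippocampus CD51+ and 11 of 16 (68.8%; 24.9%) in hippocampus CD51−. Over tested members only, the set that matches the tested genes, the hippocampal counts were 8 of 18 (44.4%) and 10 of 15 (66.7%). With 3 libraries per group these shares have no test, and the share for all genes is not matched for level.

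Per kilobase of unshared exon, Pcdhgc3 came first in 10 of the 12 libraries with 24.2% to 69.4% of the summed level. The exceptions were cortex CD51− replicate 1, led by Pcdhga2 with 45.0%, and hippocampus CD51− replicate 3, led by Pcdhgc5 with 24.6%. Second place in those 10 libraries was held by 10 different genes, among them Pcdhgb8 (17.5%), Pcdhga3 (10.5%) and Pcdhb7 (16.5%) in cortex CD51+ replicates 1, 2 and 3. Hippocampus CD51− replicate 2, the library with the highest sum of its class, had Pcdhgb1 in second place with 29.4%.

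**Figure D4:**
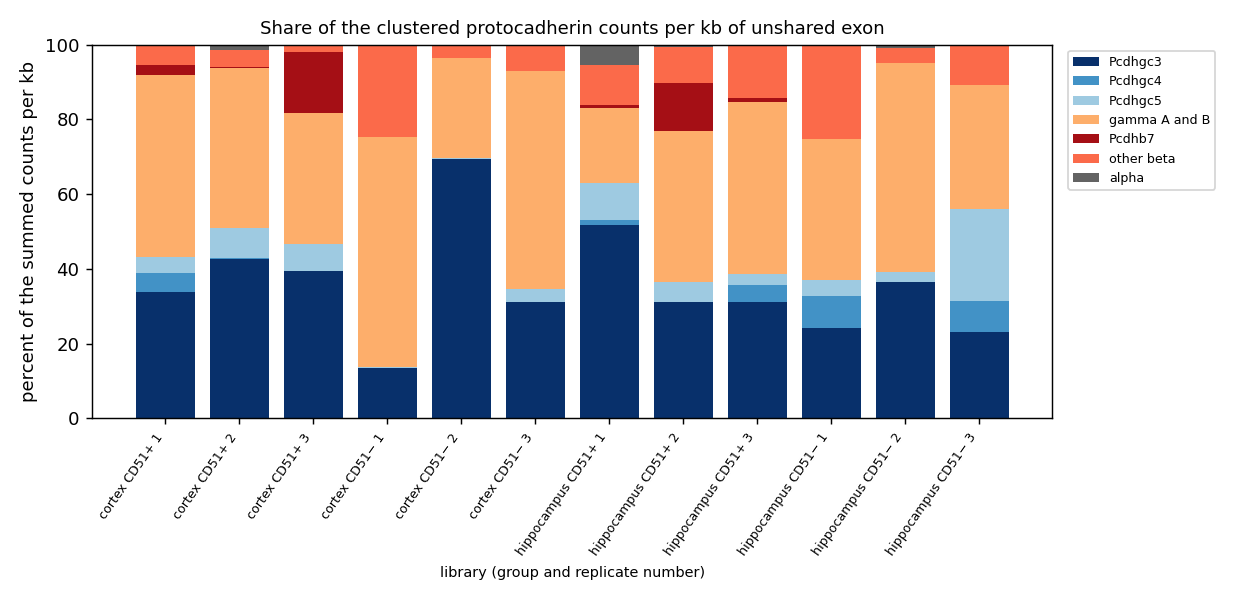
Percent of the summed counts per kilobase of unshared exon (vertical axis) taken by Pcdhgc3, Pcdhgc4, Pcdhgc5, the gamma A and B genes, Pcdhb7, the other beta genes and the alpha genes in each library (horizontal axis, group and replicate). Pcdhgc3 takes 13.6% to 69.4%, Pcdhb7 appears only in CD51+ libraries, and the other beta genes take 24.7% and 25.3% in replicate 1 of cortex and hippocampus CD51−.

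Between regions no member passed. Of the 25 tested members, 0 were higher and 0 lower in hippocampus, where 0.159% and 0.0317% of all tested genes were, and 6 had an unadjusted edgeR p under 0.05 (15.1% of all genes). The smallest was that of Pcdhgb1 (log2 difference 5.62 ± 1.59, hippocampus minus cortex, averaged over both classes; edgeR adjusted p = 0.0944), which rests on the cortical CD51− libraries at 0 and on hippocampus CD51− replicate 2. For the difference between the regional CD51 effects, 0 members and 0 of all tested genes passed in edgeR, with 5 members at an unadjusted p under 0.05 (12.6% of all genes). DESeq2 called 1 member higher and 2 lower there, and its share over all tested genes is not given here.

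Genes known to control the arrays, to cleave the proteins or to act with them were counted by list. Of 20 regulators tested (CTCF, cohesin, its loaders, and chromatin and DNA methylation enzymes), 0 passed in cortex (5.05% of all tested genes were higher and 6.27% lower) or in hippocampus (0.618% and 2.7%). In the average (8.87% of all tested genes higher and 13.9% lower) 1 regulator passed, the cohesin subunit Stag1, which was lower in CD51+, with a log2 fold change of -1.66 ± 0.60 (edgeR adjusted p = 0.0472). The list had a median log2 fold change of -0.44 in cortex and -0.19 in hippocampus, beside -0.03 and -0.22 over all tested genes. Of 7 tested proteases that cleave protocadherins, Aph1b, a gamma-secretase subunit, was higher in cortex at 5.88, 33.6 and 66.8 against 0.0844, 0 and 0 CPM (edgeR adjusted p = 0.0275). Adam10, a sheddase, was lower in the average (-1.77 ± 0.61; 0.0392).

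Of 19 tested intracellular and membrane partners, 2 were higher and 1 lower in cortex (5.05% and 6.27% of all tested genes), 1 was higher and 1 lower in hippocampus (0.618% and 2.7%), and 3 were higher and 2 lower in the average (8.87% and 13.9%). Neuroligin 2 (Nlgn2), a postsynaptic adhesion protein, was at 106, 32.2 and 163 CPM in cortex CD51+ against 0, 0.359 and 3.36 in CD51−, and at 27.1, 18.9 and 156 against 0.246, 1.58 and 1.90 CPM in hippocampus (edgeR adjusted p = 0.0131 and 0.0421). Nckap1, a subunit of the WAVE actin regulator, was higher in cortex (2.65 ± 0.74; edgeR adjusted p = 0.0237). Marcks, an actin-binding substrate of protein kinase C, was lower in both regions, with log2 fold changes of -2.65 ± 0.64 in cortex and -2.75 ± 0.64 in hippocampus (edgeR adjusted p = 0.00939 and 0.0161).

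Other protocadherins and cadherins also had members that were higher in CD51+. All 8 tested non-clustered protocadherins, of 12 listed, had fitted values above 0 in cortex and in hippocampus (48.5% and 45.7% of all tested genes). Their medians were 2.53 and 3.20 on the log2 scale, beside -0.03 and -0.22 over all tested genes. Of them 1 passed in each region (5.05% of all tested genes were higher in cortex and 0.618% in hippocampus) and 4 in the average (8.87%). The member that passed in each region was Pcdh10, at 477, 774 and 608 against 78.2, 24.0 and 65.2 CPM in cortex and 265, 444 and 449 against 89.5, 58.6 and 32.8 CPM in hippocampus (log2 fold change 3.47 ± 0.67 and 2.68 ± 0.64; edgeR adjusted p = 0.00166 and 0.0201). Of 15 other tested cadherins, 3 were higher in cortex, where 5.05% of all tested genes were, and 0 were lower (6.27%). These 3 were Cdh19, Fat1 and Cdh6 (edgeR adjusted p = 0.00527, 0.0178 and 0.0311). In hippocampus 0 were higher (0.618% of all tested genes) and 0 were lower (2.7%). In the average 6 were higher (8.87%) and 0 were lower (13.9%).

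Of 7 tested neighbours of the arrays, 2 were lower in cortex CD51+ and 0 higher (6.27% and 5.05% of all tested genes). Taf7, a general transcription factor subunit encoded between the beta and gamma arrays, was at 0.840, 0 and 0.203 CPM in cortex CD51+ against 28.7, 158 and 12.3 in CD51− (log2 fold change -7.54 ± 2.07; edgeR adjusted p = 0.0215). Arap3, a GTPase-activating protein gene downstream of the gamma array, was lower in both regions (edgeR adjusted p = 0.0152 and 0.0215).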

How the data were processed

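The deposited values are raw counts: per the file headers, the authors counted read pairs over exons of GENCODE vM25 with featureCounts 2.0.4, unstranded, on primary alignments, without pairs on different chromosomes, and without a setting to assign pairs to several genes. Per the submitters' processing notes, STAR, mm10 and DESeq2 1.40.2 were used. Symbols came from a name table that matched 55141 of 55401 gene IDs. Groups follow the sample titles. Members and lists were chosen with earlier results of these data known.

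The test was edgeR 4.0.16 (R 4.3.3): TMM, filterByExpr by group (minimum count 10, total 15, leaving 12613 genes), 1 quasi-likelihood fit of 4 groups over 12 libraries, 5 contrasts, and Benjamini-Hochberg adjustment at 0.05 over all tested genes. The common dispersion was 1.64. The script was also run on simulated negative binomial counts with planted differences, and the outcome is not given here. SE is the absolute log2 fold change over the square root of F. A group with 0 counts takes a floor of 3 counts, and 1 to 3 counts give a ratio with a 95% interval. Lengths count exon bases shared with no other member or gene.

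Values in every library are given for the C-type isoforms, the 5 most abundant tested members of each subfamily and every called member, and of other lists for up to 3 called genes per contrast. Alternatives were DESeq2 1.42.0, limma-voom (limma 3.58.1), RLE or upper-quartile factors, robust dispersion, no filter or 1 CPM in 3 libraries, only a region's libraries, no mitochondrially encoded genes, full exon length, a replicate block, and each library left out. The ratios of pooled counts without the library that held most of them, and the ratios to astrocyte markers, were chosen after seeing the data.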

Additional observations from a re-analysis of the deposited data

How the results depend on the processing

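Of 15 calls of single members, 13 were ended by leaving out at least 1 library. The other 2, those of Pcdhb7 in cortex and in the average, were kept by every alternative that tested them. The number of members higher in CD51+ in cortex, 6, fell to 2 with only the cortical libraries in the fit, where Pcdhb7 was not tested. It rose to 8 with DESeq2 and ranged from 1 to 6 with a library left out (2 without cortex CD51+ replicate 1, and 1 without cortex CD51− replicate 1 or 2). The hippocampal 1 ranged from 0 to 1, and the averaged 8 from 3 (without hippocampus CD51+ or CD51− replicate 1) to 12 (without cortex CD51− replicate 3). DESeq2 called 1 member lower in cortex. For the difference between regional effects it called 1 higher and 2 lower, and the fit with no filter called 1 lower. The fit with no filter also called 1 higher in hippocampus against cortex. The share of all tested genes called in each alternative is not given here. These counts are therefore not told apart from a shift in calls over all genes.

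Whether same-numbered libraries share an origin is not known. Between different groups, 18 correlations of deviations of same-numbered libraries ran from -0.05 to 0.03, with 0 above 0.1. Those of differently numbered libraries ran from -0.04 to 0.06. At the spread of these libraries (common dispersion 1.64), values near 0 do not exclude a shared origin. With a replicate block, over all libraries or within each region, 5 members in place of 8 were higher in the average. The share over all tested genes with a block is not given here. Both blocks ended the averaged calls of Pcdhb15 (edgeR adjusted p = 0.0516 and 0.101), Pcdhga6 (0.0515 and 0.0764), Pcdhga8 (0.0657 and 0.114), Pcdhgb8 (0.384 and 0.502) and Pcdhgc4 (0.0534 and 0.128), and gave calls to Pcdhgc5 in the average (0.0392 and 0.0184) and in cortex (0.0409 and 0.00956). In cortex the block over all libraries ended the call of Pcdhgb8 (0.0706), and the block within each region those of Pcdhga9 (0.0595) and Pcdhgc4 (0.0760). The log2 fold change of Pcdhgc4 in hippocampus, not called, turned from -0.14 to 0.045 with upper-quartile factors and to 0.03, 0.44, 0.43 and 0.08 without hippocampus CD51+ replicate 1 or 2 or CD51− replicate 1 or 3, within a range of -1.59 to 0.44 with a library left out. No alternative turned the direction of the log2 ratios of the summed levels. Leaving out a library gave 2.29 to 3.35 in cortex and 0.49 to 1.497 in hippocampus for all members, and 0.091 to 1.31 in hippocampus for gamma. By full exon length Pcdhgc3 was 2.54 times the next member in place of 5.12 times. The alpha genes rest on the fewest counts of the arrays, 193 over the 12 libraries. What depth and shared exons contribute to that was not tested.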
